A study of Mus musculus with 6 samples.

Results

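The genes described here are 35 genes that smooth muscle uses to contract, to control its contraction and to anchor its contractile apparatus. They were taken by symbol from the deposited gene tables, and all 35 were found among 55849 listed genes. Each had enough counts to be tested, as did 16107 genes in all. The study sequenced polyadenylated RNA of the descending colon of mice at 12 weeks of age, with 3 libraries for wild-type C57BL/6 and 3 for Muc2-/- animals. The animals had no treatment. Muc2 encodes the gel-forming mucin of colonic mucus, and the labels describe neither the mutated allele nor the strain background of the Muc2-/- mice, and name no sex. Sample titles call the material crypts, whereas the protocols call it pieces of colon tissue. The titles do not say how many animals a library holds, so p-values reflect only how far these libraries scatter.

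In smooth muscle, myosin built on the heavy chain Myh11 pulls on thin filaments of actin, tropomyosin, calponin and caldesmon. Calcium entering through voltage-gated channels binds calmodulin and switches on myosin light chain kinase, and a myosin phosphatase reverses its effect. Thin and intermediate filaments are tied to dense bodies and to the plasma membrane, and the coactivator Myocd with serum response factor drives many of these genes through a short promoter site called the CArG box. In the colon these genes are used by the muscularis propria and the muscularis mucosae, and by the walls of blood vessels.

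The CArG box was therefore looked for in the 250 bases before the annotated starts. Promoters of 31 of the 35 genes were matched by symbol in the RefSeq table for build GRCm38.p6. Actg2, Myh11, Myocd and Tagln had no match. An exact box stood before 3 of the 31 (9.68%), namely Myl9, Dmd and Ldb3, against 1.62% of 27025 genes with a promoter in the same table. A box with 1 mismatch among its middle bases stood before 7 of the 31 (22.6%), against 8.33% of all genes. Both searches cover both strands, since the box is its own reverse complement in form. CATTCC, the core bound by TEAD factors, stood on either strand before 10 of the 31 (32.3%) and 14.4% of all genes, counted whether or not it overlapped a CArG box. Such matches describe the letters of these windows and nothing more. These sequences are shown because they hold the 3 exact boxes and the pair of mismatched boxes of Acta2, with boxes in capitals, 5′ to 3′ along the strand of the gene.
Myl9, chr2:156775268-156775409, plus strand, with a mismatched box after the exact one: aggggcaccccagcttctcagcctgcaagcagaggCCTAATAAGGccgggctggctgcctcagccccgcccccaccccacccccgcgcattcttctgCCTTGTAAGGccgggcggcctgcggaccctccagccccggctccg
Dmd, chrX:82948737-82948816, plus strand: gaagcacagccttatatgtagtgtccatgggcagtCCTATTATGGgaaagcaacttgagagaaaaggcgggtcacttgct
Ldb3, chr14:34588682-34588751, minus strand: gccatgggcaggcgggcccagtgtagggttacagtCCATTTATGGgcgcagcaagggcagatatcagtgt
Acta2, chr19:34255374-34255492, minus strand: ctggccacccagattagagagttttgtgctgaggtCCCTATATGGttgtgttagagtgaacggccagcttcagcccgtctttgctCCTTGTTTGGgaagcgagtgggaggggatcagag

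Library totals ran from 16395432 to 20336459 counts. Reads of Muc2 were found throughout, with 2480, 6977 and 2629 CPM for wild-type 1, 2 and 3, against 757, 1021 and 942 CPM for Muc2-/- 1, 2 and 3. CPM are counts scaled to a common library total and corrected for composition, and FPKM, the deposited values per length, serve to compare levels between genes. The libraries of a group were unlike each other. Mitochondrially encoded genes took 8.98%, 5.30% and 3.49% of counts in the 3 wild-type libraries and 3.50%, 1.04% and 3.30% in the 3 Muc2-/- libraries, and Muc2-/- 2 differed from the others in a way that went with gene length.

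The contractile genes took a larger share of the RNA in every wild-type library than in any Muc2-/- library. Together they held 4.20%, 2.39% and 1.14% of all counts in wild-type 1, 2 and 3. In Muc2-/- 1, 2 and 3 they held 0.821%, 0.741% and 0.470%. The means were 2.58% ± 1.54 and 0.678% ± 0.184 (SD, n = 3 each), 3.80-fold lower in Muc2-/-. The spread inside wild-type was of the same size as this difference: wild-type 1 stood 3.69-fold above wild-type 3, whereas wild-type 3 stood 1.39-fold above Muc2-/- 1, the highest of its group. Muc2-/- 1 in turn stood 1.75-fold above Muc2-/- 3. In bulk RNA, fewer muscle cells and less contractile RNA per cell cannot be told apart.

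The decline from wild-type 1 over wild-type 2 to wild-type 3 held for 33 of the 35 genes one by one, against 30.8% of all tested genes. The exceptions were Pln and Pcp4, both highest in wild-type 2. Wild-type 1 was at least 2-fold above wild-type 3 for 33 genes, all except Ldb3 and Casq2, against 20.3% of all tested genes. The median of the 35 was 3.51-fold between these libraries of the same genotype, or 1.81 on the log2 scale, where the median of all tested genes was 0.05. The order of the replicate numbers carries no meaning, and the 3 libraries are named only to tell them apart.

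Across the genotype line the step was smaller. Muc2-/- 1 lay under wild-type 3 for 33 genes, all except Hspb6 and Myocd, against 49% of all tested genes. The median step between those libraries was 1.32-fold, and that from Muc2-/- 1 down to Muc2-/- 3 was 1.78-fold, seen in 34 genes (all except Ldb3) against 50.3% of all tested genes. Muc2-/- 3 was the lowest of the 6 libraries for 24 of the genes, and Muc2-/- 2 for 10. Wild-type 3 was thus nearer in level to Muc2-/- 1 than to wild-type 1.

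**Figure D1:**
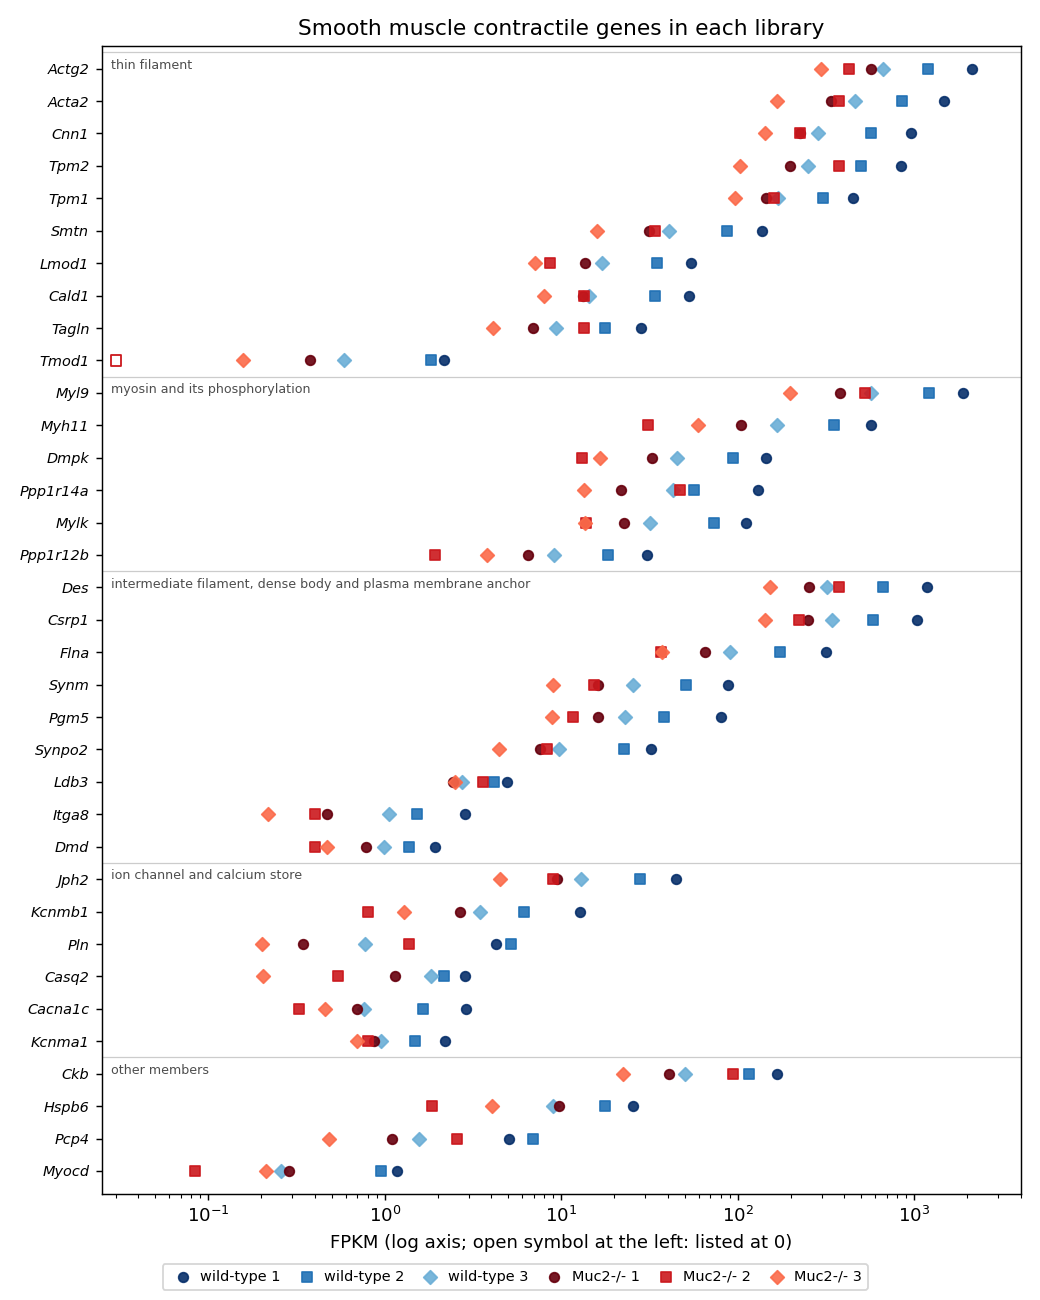
FPKM (log axis) of the 35 contractile genes in each library, grouped by role and ordered by wild-type mean. Blue symbols are wild-type and red are Muc2-/-, with circle, square and diamond for replicates 1, 2 and 3, and the open symbol marks Tmod1 listed at 0. Wild-type 1 is the rightmost point for 33 genes, and Muc2-/- 3 the leftmost for 24.

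All 35 genes had a lower mean in Muc2-/-, where 50.9% of all tested genes had a negative log2 fold change. The median log2 fold change was -1.76 over the 35 and -0.01 over all tested genes, and single values ran from -3.10 for Tmod1 to -0.50 for Ldb3. None passed the test: edgeR's quasi-likelihood test with Benjamini-Hochberg adjustment over all genes called 0 of 35 lower and 0 higher at 0.05, where it called 0.0186% of all tested genes lower and 0.106% higher. Adjusted p ran from 0.101 for Itga8 to 0.363 for Ldb3. At an unadjusted p under 0.05, 32 were lower (12.7% of all tested genes) and 0 higher (8.23%), the 3 others being Tpm2, Ckb and Ldb3. DESeq2 called 29 lower (6.61% of the genes it tested) and 0 higher (3.24%), leaving Tagln, Tpm2, Ckb, Kcnma1, Pcp4 and Ldb3. Without wild-type 3, edgeR called 24 lower, against 5.68% of all genes, while leaving out any other single library gave 0. For 19 of the 35 the distance between wild-type 1 and wild-type 3 was larger than the fold change between genotypes.

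For 25 genes every Muc2-/- library lay under every wild-type library, as it did for 15.2% of all tested genes. The 10 with overlap were Tagln, Tpm2, Des, Ldb3, Ppp1r14a, Pln, Myocd, Ckb, Pcp4 and Hspb6. Without Muc2-/- 2 the count was 33, against 22.1%, and 33 were lower at an unadjusted p under 0.05, against 11.6%, with 0 higher, against 9.25%.

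**Figure D2:**
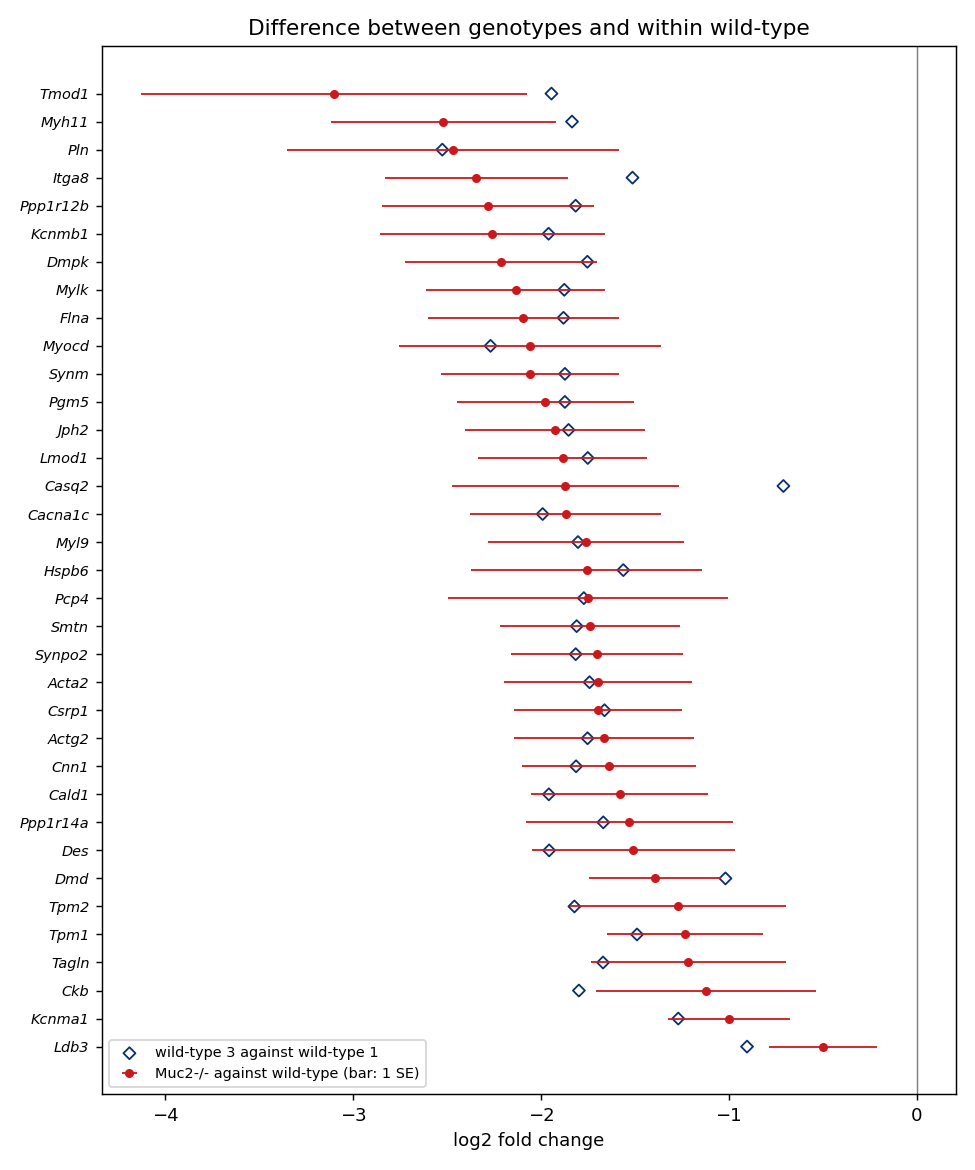
Log2 fold change of Muc2-/- against wild-type for each contractile gene, with bars of 1 SE derived from edgeR's F statistic, beside the log2 difference between wild-type 1 and wild-type 3. The fold changes run from -3.10 (Tmod1) to -0.50 (Ldb3), and the distance inside wild-type is as long or longer for 19 of the 35 genes.

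Thin filament genes were the most abundant. Actg2, the enteric smooth muscle actin (chromosome 6, 83489887 to 83513247 as the count table gives it), was the first of the 35 in wild-type, at 1331 ± 742 FPKM (SD, n = 3). Wild-type 1, 2 and 3 had 3419.8, 1900.0 and 1015 CPM, and Muc2-/- 1, 2 and 3 had 889.6, 654 and 458 CPM. The groups do not overlap, though 1015 in the lowest wild-type library lies closer to 889.6 in Muc2-/- 1 than to any wild-type value. The log2 fold change was -1.66 (SE 0.48; edgeR adjusted p = 0.121). Acta2, the actin shared with vascular muscle (chromosome 19, 34218490 to 34232990), had 3330.1, 1892 and 996 CPM in wild-type and 742, 807 and 367 CPM in Muc2-/-, again without overlap, with a log2 fold change of -1.70 (SE 0.50; edgeR adjusted p = 0.123). Both actins thus had the same order of wild-type libraries and a like fold change. Cnn1, the calponin that restrains myosin on actin, had 2687, 1591 and 765 CPM in wild-type and 621, 608 and 392 CPM in Muc2-/-.

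The tropomyosins differed in the place of Muc2-/- 2. Tpm1 had 3022, 1993 and 1077 CPM in wild-type and 938, 1027 and 625 CPM in Muc2-/-, with every wild-type value the higher. Tpm2 had 2534, 1468 and 717 CPM in wild-type and 579.7, 1077 and 299 CPM in Muc2-/-, so that Muc2-/- 2 lay above wild-type 3. The log2 fold change of Tpm2 was -1.27 (SE 0.58; edgeR adjusted p = 0.257), and without Muc2-/- 2 it was -1.81. Smtn, which marks contractile smooth muscle, went from 619, 385 and 176 CPM to 138, 146 and 69.3 CPM. Lmod1, which nucleates actin filaments, went from 221, 139 and 65.8 CPM to 54.1, 33.4 and 27.998 CPM, and Cald1, the caldesmon, from 659, 416 and 169.8 CPM to 161, 159.9 and 95.7 CPM. Tmod1, which caps the slow-growing filament end, was low throughout, with 8.81, 7.35 and 2.29 CPM in wild-type and 1.49, 0 and 0.618 CPM in Muc2-/-, where a count of 0 allows up to 0.198 CPM. Its fold change of -3.10 has the widest error of the 35 (SE 1.03; edgeR adjusted p = 0.149). Without Muc2-/- 1 it was -4.25, without Muc2-/- 2 it was -2.503, and on log2(FPKM + 1) with no minimum it was -1.05.

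Tagln, the actin-binding protein SM22 and usually an abundant smooth muscle transcript, was listed far below its fellows. It had 57.9, 35.9 and 18.2 CPM in wild-type and 13.8, 26.4 and 8.16 CPM in Muc2-/-, and at 18.5 ± 9.49 FPKM (SD, n = 3) it stood at place 23 of 35 in wild-type, while Cnn1 stood at 603 ± 335 FPKM. In GENCODE M21, 62.4% of the exonic bases of Tagln also belong to Gm48529 on the opposite strand. Gm48529 had 146, 150 and 85 counts in wild-type and 120, 103 and 90 counts in Muc2-/-. How the counting treated reads that fall in both genes is not stated by the labels, so the level of Tagln is uncertain, and its fold change of -1.22 (SE 0.52; edgeR adjusted p = 0.232) with it. Such sharing was over 25% for 2 other genes, Pln with Gm47644 (59.6%) and Tmod1 with Tstd2 (32.6%). It was 23.7% for Pcp4 with Igsf5 on the same strand, and 16.3% for Smtn with the opposite-strand Gm11946. Gm11946 had 2064, 1070 and 477 counts in wild-type and 254, 224 and 126 counts in Muc2-/-. The counts of Smtn had the same order of libraries. No exonic base was shared for 23 of the 35.

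Of the 10 thin filament genes, 8 did not overlap between groups (15.2% of all tested genes). At an unadjusted p under 0.05, 9 were lower (12.7% of all tested genes). DESeq2 called 8 (6.61% of the genes it tested), and edgeR without wild-type 3 called 7 (5.68% of all genes). Their median log2 fold change was -1.65.

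Myosin and the enzymes that phosphorylate it had the lowest median log2 fold change of the role groups, -2.17 over 6 genes. Myh11, the smooth muscle myosin heavy chain (chromosome 16, 14012399 to 14109236), had 4473, 2724 and 1254 CPM in wild-type and 795, 231 and 448 CPM in Muc2-/-. All Muc2-/- values lay under the lowest wild-type value, and Muc2-/- 2 was the lowest of all. Means were 2817 ± 1612 and 491 ± 284 CPM (SD, n = 3 each), 5.73-fold lower, and the log2 fold change was -2.52 (SE 0.60; edgeR adjusted p = 0.103; DESeq2 adjusted p = 6.03e-05). Without Muc2-/- 2 it was -2.15. Myl9, the regulatory light chain, with an exact CArG box before its start, had 2256, 1424 and 647 CPM in wild-type and 447, 603 and 229 CPM in Muc2-/-, with a log2 fold change of -1.76 (SE 0.52; edgeR adjusted p = 0.124). In contrast with Myh11, Myl9 had its highest Muc2-/- value in Muc2-/- 2.

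Mylk, the kinase of the light chain, went from 1289, 837 and 351 CPM in wild-type to 258, 153 and 153 CPM in Muc2-/-. Ppp1r12b, a targeting subunit of the myosin phosphatase, had 472, 280.4 and 134 CPM in wild-type and 97.8, 28.1 and 56.6 CPM in Muc2-/-. Dmpk, a kinase first known from myotonic dystrophy, had 648, 412 and 192 CPM and then 142, 55.4 and 72.1 CPM. None of these 3 overlapped between groups, and as in Myh11 Muc2-/- 1 was the highest of its group. Ppp1r14a, or CPI-17, the inhibitor of the same phosphatase, had 185, 78.3 and 58.1 CPM in wild-type and 30.2, 62.8 and 18.3 CPM in Muc2-/-, where Muc2-/- 2 exceeded wild-type 3. All 6 genes of the group were lower at an unadjusted p under 0.05 (12.7% of all tested genes). DESeq2 called 6 (6.61% of the genes it tested), and edgeR without wild-type 3 called 5 (5.68% of all genes).

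Genes of intermediate filaments, dense bodies and membrane anchors came to a median log2 fold change of -1.70 over 9 genes. Of these, 7 did not overlap (15.2% of all tested genes) and 8 were lower at an unadjusted p under 0.05 (12.7%). DESeq2 called 8 (6.61% of the genes it tested), and edgeR without wild-type 3 called 7 (5.68% of all genes). Des, the muscle intermediate filament protein desmin, had 4576, 2529 and 1179 CPM in wild-type and 959, 1379.6 and 573 CPM in Muc2-/-. Muc2-/- 2 lay above wild-type 3, and the log2 fold change was -1.51 (SE 0.54; edgeR adjusted p = 0.172). Its partner Synm, or synemin, had 724, 408 and 198 CPM in wild-type and 129, 119 and 71.4 CPM in Muc2-/-, without overlap. Flna, the actin crosslinker filamin A, had 3101, 1658 and 843 CPM in wild-type and 622, 340.0 and 349.6 CPM in Muc2-/-. Flna is used by most cell types, and its values still kept the order of the muscle-restricted genes in wild-type. Csrp1, a LIM protein of smooth muscle, had 2079, 1155 and 657 CPM and then 495, 428 and 278 CPM.

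The less abundant anchors behaved alike with some exceptions. Itga8, the integrin alpha chain that pairs with beta 1, had 21.8, 11.5 and 7.63 CPM in wild-type and 3.51, 2.91 and 1.61 CPM in Muc2-/-. Its log2 fold change of -2.34 (SE 0.49) had the lowest adjusted p of the 35 genes by edgeR, 0.101. Pgm5, an adhesion protein related to phosphoglucomutase, had 299, 140.1 and 81.5 CPM in wild-type and 58.8, 41.2 and 32.1 CPM in Muc2-/-. Synpo2, an actin-bundling protein of dense bodies, had 437, 301 and 124 CPM and then 100.4, 107 and 58.2 CPM. Dmd, the dystrophin that links actin to the membrane, had 47.0, 33.3 and 23.2 CPM in wild-type and 18.8, 9.45 and 11.2 CPM in Muc2-/-, without overlap. Ldb3, a PDZ and LIM protein of striated muscle Z-discs, had 30.9, 25.9 and 16.5 CPM in wild-type and 15.004, 21.6 and 15.2 CPM in Muc2-/-. Ldb3 thus had the smallest difference of the 35, 1.41-fold with overlap (SE 0.29 on the log2 scale; edgeR adjusted p = 0.363). Its promoter is one of the 3 with an exact CArG box.

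Channel and calcium store genes were scarce beside the filament genes, holding 0.980% of the counts of the 35 in wild-type 1, and had a median log2 fold change of -1.90 over 6 genes. Kcnmb1, the accessory subunit that raises the calcium sensitivity of the large potassium channel, had 55.4, 26.2 and 14.3 CPM in wild-type and 11.3, 3.30 and 5.38 CPM in Muc2-/-. Kcnma1, the pore of the same channel, had 38.4, 25.7 and 15.9 CPM and then 14.9, 13.3 and 11.8 CPM. The log2 fold changes were -0.999 (SE 0.33; edgeR adjusted p = 0.147) for Kcnma1 and -2.26 (SE 0.60; edgeR adjusted p = 0.107) for Kcnmb1. Cacna1c, the pore of the L-type calcium channel, had 65.2, 36.6 and 16.4 CPM in wild-type and 15.3, 7.004 and 10.01 CPM in Muc2-/-.

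Jph2, which couples the calcium store to the plasma membrane, had 195, 120.1 and 53.9 CPM in wild-type and 40.5, 37.5 and 19.0 CPM in Muc2-/-. Casq2, the calcium-binding protein of the store, had 8.03, 6.05 and 4.91 CPM in wild-type and 3.16, 1.45 and 0.556 CPM in Muc2-/-. Neither overlapped. Pln, the brake on the calcium pump of the store, had 12.1, 14.6 and 2.10 CPM in wild-type and 0.953, 3.70 and 0.556 CPM in Muc2-/-, so that Muc2-/- 2 exceeded wild-type 3. Without Muc2-/- 2 its log2 fold change went from -2.47 to -3.62. In the channel and store group 5 of 6 genes did not overlap (15.2% of all tested genes). All 6 were lower at an unadjusted p under 0.05 (12.7% of all tested genes). DESeq2 called 5 (6.61% of the genes it tested), and edgeR without wild-type 3 called 4 (5.68% of all genes).

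The other 4 genes, a regulator, an enzyme and a pair of small proteins, all overlapped between groups. Myocd, the coactivator itself, was the least abundant of the 35 per length, at 0.798 ± 0.482 FPKM in wild-type (SD, n = 3). It had 7.81, 6.25 and 1.62 CPM in wild-type and 1.85, 0.529 and 1.36 CPM in Muc2-/-, so that 1.62 in wild-type 3 lay inside the range of Muc2-/-. Ckb, the creatine kinase that buffers ATP in smooth muscle and in epithelium, had 495, 339.9 and 142 CPM in wild-type and 119, 265 and 64.5 CPM in Muc2-/-. Hspb6, a small heat shock protein involved in relaxation, had 60.1, 41.2 and 20.4 CPM and then 22.4, 4.16 and 9.33 CPM. Pcp4, a calmodulin-binding peptide, had 5.37, 7.19 and 1.57 CPM and then 1.13, 2.58 and 0.494 CPM. In this group 3 genes were lower at an unadjusted p under 0.05 (12.7% of all tested genes). DESeq2 called 2 (6.61% of the genes it tested), and edgeR without wild-type 3 called 1, Myocd (5.68% of all genes).

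Ratios within a library do not depend on scaling between libraries, and 6 were compared by an exact two-sided permutation test of the log2 ratio, whose smallest possible p is 0.1. Actg2 to Acta2 was nearly fixed in wild-type, at 1.45, 1.42 and 1.44, and ranged more widely in Muc2-/-, at 1.69, 1.14 and 1.76 (exact permutation p = 1). Des to Synm was 13.4, 13.1 and 12.6 in wild-type and 15.7, 24.5 and 16.9 in Muc2-/-. Each Muc2-/- value was higher, by 0.52 on the log2 scale on average (exact permutation p = 0.1, the smallest possible; 0.3 after Benjamini-Hochberg adjustment over 6 ratios). Kcnmb1 to Kcnma1 was 5.85, 4.12 and 3.63 in wild-type and 3.08, 1.00 and 1.85 in Muc2-/-, each Muc2-/- value the lower, with a log2 difference of -1.31 (exact permutation p = 0.1; adjusted 0.3). Neither of these passed 0.05, which the design cannot reach.

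Within wild-type, Kcnmb1 to Kcnma1, Des to Synm and Tpm2 to Tpm1 were each highest in wild-type 1 and lowest in wild-type 3, the same order as the contractile share of the RNA. Like Actg2 to Acta2, the 3 ratios that follow overlapped between groups, and Muc2-/- 2 had the highest or the lowest value in each. The log2 differences of the ratios to Mylk changed sign without Muc2-/- 2, and that of Tpm2 to Tpm1 without Muc2-/- 3. Tpm2 to Tpm1 was 1.87, 1.64 and 1.48 in wild-type and 1.38, 2.34 and 1.07 in Muc2-/- (exact permutation p = 0.8). Ppp1r12b to Mylk was 0.276, 0.252 and 0.287 and then 0.286, 0.138 and 0.278 (exact permutation p = 0.8). Ppp1r14a to Mylk, inhibitor of the phosphatase against the kinase, was 1.18, 0.771 and 1.36 and then 0.966, 3.37 and 0.986 (exact permutation p = 0.7).

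**Figure D3:**
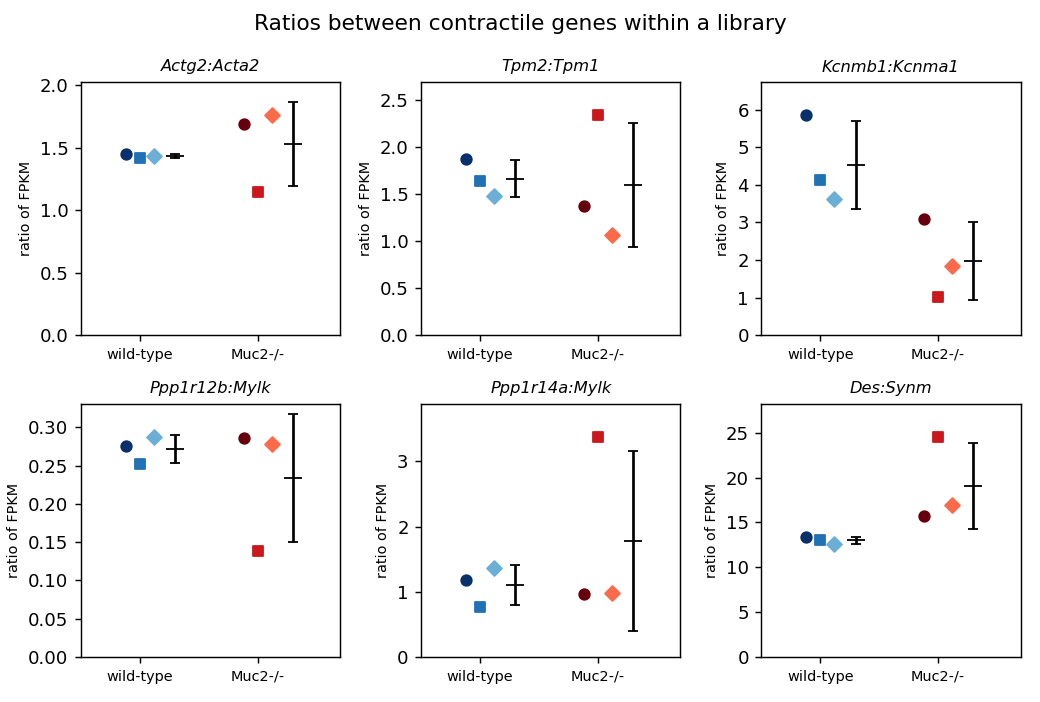
Ratios of FPKM between functional partners within each library, with circle, square and diamond for replicates 1, 2 and 3, wild-type in blue and Muc2-/- in red, and bars for mean ± SD. Of these 6 ratios, Kcnmb1 to Kcnma1 and Des to Synm do not overlap between groups, and Muc2-/- 2 has the highest or the lowest value in each.

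The genes were next compared with each other by subtracting, in each library, the median of the 35 from log2(FPKM + 0.1), a comparison added after the values were seen. On this scale 9 genes lay lower in every Muc2-/- library than in every wild-type library (0.708% of all tested genes did). Another 3 lay higher (55% did). The list itself sets this scale, so neither share of all tested genes is a yardstick for the 35. The 9 were Tmod1, Myh11, Ppp1r12b, Dmpk, Itga8, Mylk, Flna, Synm and Jph2. Among them the mean differences of Tmod1, Myh11 and Ppp1r12b were -1.16, -0.997 and -0.73, and without Muc2-/- 2 they were -0.45, -0.44 and -0.18. The differences of Itga8 and Synm were -0.48 and -0.39, and without Muc2-/- 2 they were -0.45 and -0.40. The 3 that lay higher were Ldb3 at 1.05, Kcnma1 at 0.67 and Tpm1 at 0.37, and without Muc2-/- 2 these were 0.99, 0.77 and 0.33. Without that library 14 genes lay lower (0.962% of all tested genes) and 5 higher (74.4%), and the list sets these shares too.

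Muc2-/- 2 departed from Muc2-/- 1 and 3 by gene length. Over the 35 genes, the rank correlation between the listed length and the log2 ratio of Muc2-/- 2 to the mean of Muc2-/- 1 and 3 was -0.44, and it was -0.30 over 11395 genes averaging at least 5 CPM, where genes share a library and are not replicates. The 17 genes shorter than the median of 4191 bases had a median log2 ratio of 0.54, and the 17 longer ones a median of 0.00. Transcript length gave -0.48 and GC percent 0.07. Des, Tpm2, Ckb, Pln and Ppp1r14a, all shorter than the median, were the highest of their group in Muc2-/- 2, while the longer Myh11 and Ppp1r12b were the lowest there, as were the short Hspb6 and Tmod1. Mitochondrially encoded genes were also lowest in Muc2-/- 2, at 1.04% of counts, and the part of RNA quality in these values was not tested. The correlation of length with the log2 fold change between genotypes was -0.17 with all libraries and 0.17 without Muc2-/- 2.

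**Figure D4:**
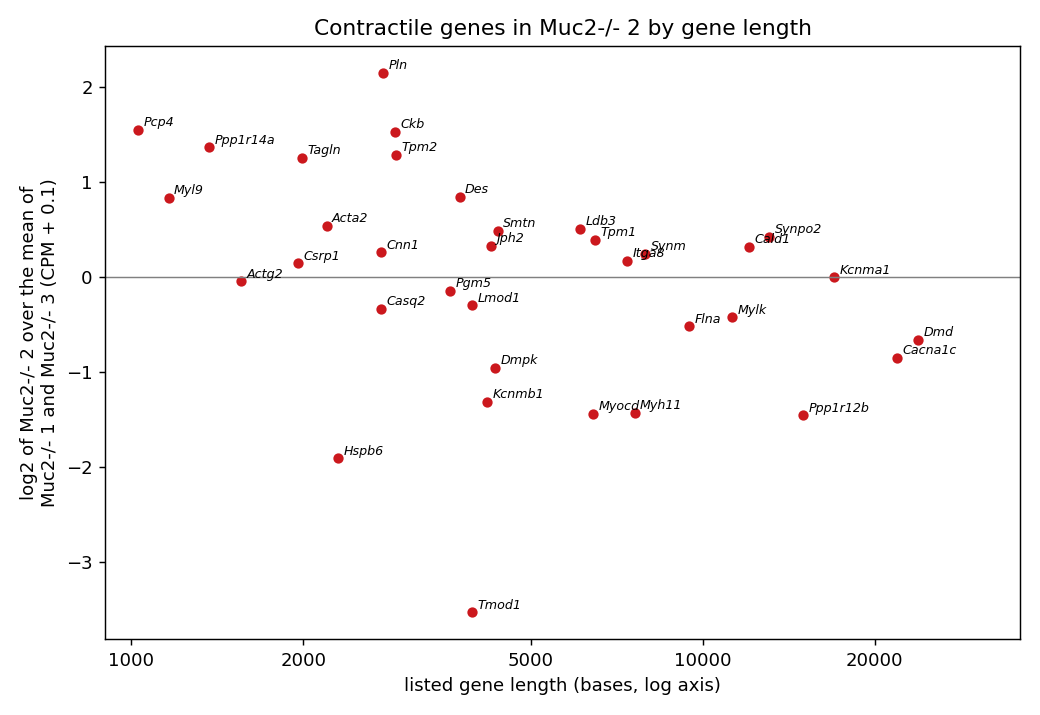
Log2 ratio of CPM in Muc2-/- 2 to the mean of Muc2-/- 1 and 3 against the listed gene length (log axis), 1 point per contractile gene. Of the 17 shorter genes 11 lie above 0, as do 9 of the 17 longer ones, and the rank correlation over the 35 points is -0.44.

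Genes that work with the contractile apparatus but were not among the 35 were described from 7 lists, with 113 genes found and 108 tested. edgeR called 0 lower and 0 higher at an adjusted p of 0.05. At an unadjusted p under 0.05 (12.7% of all tested genes lower, 8.23% higher), 60 were lower and 3 higher (Tmod3, Myl12a and Tpm3, named after their values were seen). DESeq2 called 39 lower (6.61% of the genes it tested) and 1 higher (3.24%). Their median log2 fold change was -0.98. Without wild-type 3, edgeR called 39 lower, against 5.68% of all genes.

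Calcium sources and receptors had the lowest medians of the 7 lists. Of 13 genes of calcium sources, 9 were lower at an unadjusted p under 0.05, with a median of -1.55 on the log2 scale, and of 12 receptors of contractile input 8 were lower, with a median of -1.40. Chrm2, a muscarinic receptor of smooth muscle, had 96.8, 42.1 and 25.7 CPM in wild-type and 19.1, 4.03 and 9.09 CPM in Muc2-/-. P2ry1, a purine receptor, had 32.4, 30.6 and 20.4 CPM in wild-type and 23.9, 35.4 and 21.4 CPM in Muc2-/-, with overlap. The calcium pump Atp2a2, used in many cell types, had 308, 294 and 253 CPM and then 296, 164 and 372 CPM. Stim1, the sensor of store calcium, had 91.4, 100.1 and 156 CPM and then 161, 62.0 and 152 CPM, with overlap.

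Among 15 genes of the dystrophin complex and caveolae 10 were lower at an unadjusted p under 0.05, with a median of -1.33. Cavin1, a coat protein of caveolae, had 364, 243 and 130.2 CPM in wild-type and 114, 113 and 67.1 CPM in Muc2-/-, whereas Dag1, the widely used dystroglycan, had 137, 176 and 200.2 CPM and then 194, 77.2 and 200.1 CPM. Among 26 genes of adhesion and dense bodies 15 were lower, with a median of -1.10. Itgb1, the integrin beta chain common to many cells, had 635, 454 and 322 CPM and then 358, 276 and 369 CPM. Fhl1, a LIM protein of muscle, had 588, 379 and 652 CPM and then 606, 344 and 291 CPM.

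Transcription partners had a median of -0.74, with 5 of 12 lower. Srf, the DNA-binding partner of Myocd, had 98.9, 82.9 and 56.9 CPM in wild-type and 60.6, 49.2 and 53.6 CPM in Muc2-/-, which is a narrower range than that of the contractile genes. Rbpms, an RNA-binding protein of smooth muscle, had 136, 74.6 and 35.4 CPM and then 32.8, 28.3 and 24.9 CPM. Genes that signal to myosin had a median of -0.49, with 7 of 15 lower. Calm2, a calmodulin gene, had 615, 641 and 573 CPM in wild-type and 750.2, 967 and 732 CPM in Muc2-/-.

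Other myosin and thin filament genes, many of them not restricted to muscle, had a median of -0.27, with 6 of 15 lower and 3 higher. Tpm3, a tropomyosin of the cytoskeleton, had 278, 339.9 and 308 CPM in wild-type and 419, 643 and 558 CPM in Muc2-/-, a log2 difference of 0.81 (SE 0.24; edgeR adjusted p = 0.122) against -1.23 for Tpm1. Myl6, the light chain of both muscle and non-muscle myosin, had 2096, 1813 and 1262 CPM and then 1433, 2908 and 1272 CPM.

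Markers of other cells were summed in the same libraries, with counts of tested genes at an unadjusted p under 0.05. Sums cover all listed genes, tested or not. Of all tested genes, 12.7% were lower and 8.23% higher at that threshold. The order of the contractile genes, from wild-type 1 down to wild-type 3, held for 30.8% of them. The 13 enteric neuron genes summed to 758, 431 and 185 CPM in wild-type 1, 2 and 3 and to 181, 177 and 193 CPM in Muc2-/- 1, 2 and 3, with 10 lower and all 13 in the order of the contractile genes within wild-type. In Muc2-/- 3, where the contractile share was lowest, the neuron sum was above that of wild-type 3. Tac1 alone gave 100.5 CPM of it, against 19.8 CPM in wild-type 3. Its log2 fold change was positive (0.56), and those of the other 12 neuron genes were negative. The 9 listed glia genes, with 5 of the 7 tested lower, summed to 132, 76.4 and 35.4 CPM and then 24.2, 34.8 and 17.9 CPM. Genes of pericytes and vascular muscle, 7 of 11 lower, summed to 968, 735 and 237 CPM and then 211, 215 and 127 CPM, led by Rgs5 at 569.7, 505 and 119 CPM and then 93.3, 112 and 53.4 CPM. Colonocyte genes summed to 15252, 23904 and 26374 CPM in wild-type and 29721, 37565 and 29946 CPM in Muc2-/-, each Muc2-/- sum the higher. They did not share a direction: Cdh1 was higher at an unadjusted p under 0.05, and the defining marker Slc26a3 and the water channel Aqp8 were lower, with means of 1565 and 1138 CPM in wild-type and 727 and 739.96 CPM in Muc2-/-. The abundant Krt8 had means of 5882 and 11190.0 CPM, and the other defining marker Epcam 1950.1 and 3001 CPM. Genes of pacemaker cells, which also lie in the muscle wall (3 of 6 lower), summed to 280.0, 269 and 291 CPM in wild-type and 284, 174 and 233 CPM in Muc2-/-. The sum did not follow the contractile order within wild-type, but 3 of the 6 tested genes did. The defining marker Kit followed it, at 74.6, 71.5 and 35.8 CPM and then 32.1, 39.8 and 31.4 CPM. The other defining marker, Ano1, did not, at 93.3, 106 and 218 CPM and then 207, 75.5 and 148 CPM. Fibroblast genes (5 of 15 lower, 1 higher) summed to 2346, 1447 and 1123 CPM in wild-type and 1361, 1098 and 1140 CPM in Muc2-/-. Of these 15 genes, 12 were in the contractile order within wild-type. Endothelial genes (3 of 10 lower) ranged from 109.7 to 147 CPM in wild-type and 93.5 to 118 CPM in Muc2-/-. Leukocyte genes (1 of 7 higher) summed to 222, 48.8 and 44.3 CPM in wild-type and 135, 90.0 and 182 CPM in Muc2-/-.

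The mesothelial markers Msln and Upk3b followed the order of the contractile genes in wild-type, with Msln at 17.6, 9.02 and 4.72 CPM and then 3.75, 1.85 and 2.78 CPM in Muc2-/-. In the whole mesothelium list 4 of 6 were lower, against 12.7% of all tested genes, and 1 higher, against 8.23%. The list holds Krt19, which epithelium expresses as well, and summed to 1959 to 4659 CPM in wild-type and 5363 to 12434 CPM in Muc2-/-. Skeletal muscle genes summed to 19.6 to 51.0 CPM and 9.02 to 14.8 CPM. Of the 6 tested, the defining markers were lower, with Acta1 at 9.19, 7.19 and 7.72 CPM and then 2.14, 1.85 and 1.17 CPM, and Ckm at 26.1, 21.2 and 7.49 CPM and then 3.69, 6.67 and 2.04 CPM. Tnni2 was higher, with means of 0.339 and 1.89 CPM, and of the 17 listed genes 2, Myh4 and Tnnc2, had 0 counts in all libraries. Squamous genes (1 of 5 higher) reached at most 13.0 CPM in any library, with the defining markers Krt14 from 1.67 to 3.17 CPM and Krt5 at 0 to 8 counts in wild-type and 0 to 7 in Muc2-/-. The part of the cell makeup of each piece of colon in the contractile values was not tested.

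**Figure D5:**
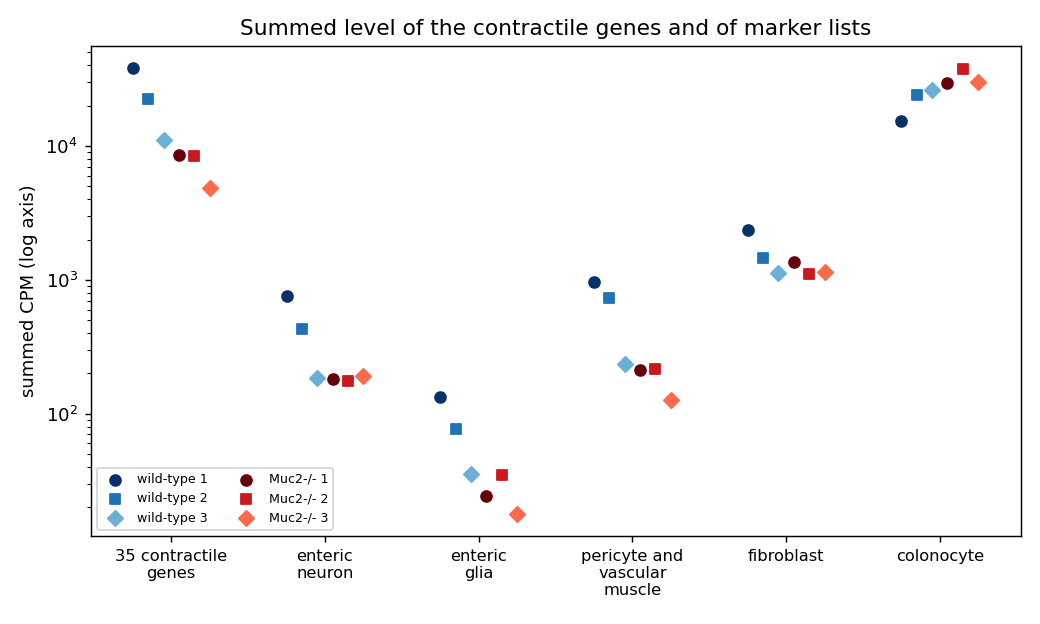
Summed CPM of the contractile genes and of marker lists for other cells in each library, on a log axis with 1 symbol per library. Neuron, glia, vascular and fibroblast sums are highest in wild-type 1 and next in wild-type 2, as the contractile sum is, and the colonocyte sum is lowest there.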

How the data were processed

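RNA of 6 libraries was described from the labels' groups and replicate numbers. The authors deposited whole-number counts per gene and FPKM. The submitters' processing notes list featureCounts 1.5.0-p3, HISAT2 2.0.5, DESeq2 1.20.0 and StringTie 1.3.3b, and the mm10 build, with no roles. Strand setting and annotation are not given in the sources used here. The deposited FPKM equal counts over listed length and a scaled library total, within 1% for 100% of values. All counted rows were kept, including 1834 without a symbol. Of the 35 genes, 34 had the width but only 2 the start that GENCODE M21 gives, so positions are those of the count table, whose assembly is not the one named.

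The test was edgeR's quasi-likelihood test (version 4.0.16, R 4.3.3) on genotype alone, with TMM factors, the low-count filter (at least 10 counts, and 15 in total) and Benjamini-Hochberg adjustment at 0.05 over 16107 genes. This test reports no SE, so each SE given is the size of the log2 fold change divided by the square root of the F statistic. CPM use the TMM factors. Each SD covers 3 libraries. Ratios were tested by going through all 20 arrangements, and scipy 1.17.1 gave their Benjamini-Hochberg adjustment. Totals of 16395432 to 20336459 counts make a floor of 3 counts equal to at most 0.198 CPM, for counting error only. Replicates differed beyond sampling noise in every pair. The procedure was tested on simulated counts. There it recovered 13.4% of 2-fold, 76.1% of 4-fold and 98.5% of 16-fold changes, and 13 of its 138 calls were unchanged genes.

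The 35 genes, the lists and the tests were chosen with earlier results of these data known. All 35 were named, with the 2 tested genes of highest mean from each of the 7 partner lists, up to 2 defining markers of cell lists, and Muc2. One of these genes is not reported here. Other symbols (overlapping loci, marker genes that are not defining, and partners with higher values) were named after their values were seen. Alternatives were other factors, filters and tools (DESeq2 1.42.0, limma 3.58.1), a block on replicate number, only protein-coding genes, and each library left out. Values relative to the median contractile gene, and shares of all genes without Muc2-/- 2 or without the filter, were added after seeing the data. Promoters were from RefSeq, build GRCm38.p6, 250 bases upstream, leaving out 1 chromosome.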

Additional observations from a re-analysis of the deposited data

How the results depend on the processing

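All 35 contractile genes kept a negative log2 fold change under each of up to 20 alternatives that gave a value. Of their 690 alternative values 590 kept the side of the threshold and 100 passed 0.05. The count called lower by edgeR was 0, and it was 25 with no filter on low counts (3.04% of the genes then tested). It was 29 with DESeq2 (6.61% of the genes it tested) and 22 with the replicate block (2.78% of all tested genes). With each library left out it ranged from 0 to 24, the 24 without wild-type 3. For the partner genes these counts were 37, 39 and 28, with a range from 0 to 39 (39 without wild-type 3), and DESeq2 called 1 partner higher. The remaining factors, filters, limma fits and gene sets called 0 contractile genes. The median contractile log2 fold change ranged from -2.08 to -1.30 with a library left out. Without composition factors the median of all tested genes shifted from -0.01 to -0.20, and the median of the contractile genes to -1.98. At that setting 27 did not overlap, and the share of all genes was not computed.

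The replicate block treats same-numbered libraries as pairs, which the labels do not state. Deviations of same-numbered libraries correlated at 0.0937, 0.281 and 0.0606 for numbers 1, 2 and 3, not all over 0.1. With 3 libraries per group, these values cannot settle whether such libraries share more than a number. Wild-type 1 and wild-type 2 each correlated best with the Muc2-/- library of the same number. Wild-type 3 and Muc2-/- 3 each correlated better with a library of another number.

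With single libraries left out, the log2 difference of the ratio Actg2 to Acta2 ranged from -0.045 to 0.27 (-0.016 without Muc2-/- 1, -0.045 without Muc2-/- 3), Tpm2 to Tpm1 from -0.45 to 0.11 (0.11 without Muc2-/- 3), Ppp1r12b to Mylk from -0.47 to 0.055 (0.055 without Muc2-/- 2) and Ppp1r14a to Mylk from -0.14 to 0.76 (-0.14 without Muc2-/- 2). Des to Synm and Kcnmb1 to Kcnma1 kept their direction.

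Signs of some genes outside the 35 turned. Their edgeR values with all libraries lay no farther from 0 than the 0.17 of Krt14, except Col1a1 at -0.54. Without composition factors Stim1 was at -0.042, Myl6 -0.10, Ano1 -0.11, Pdgfra -0.16 and Krt14 -0.024, and with upper-quartile factors Ano1 was at -0.019 and Pdgfra -0.038. Without wild-type 1 and Muc2-/- 2 together, Atp2a2 was at 0.28, Dag1 0.063, Myl6 -0.19, Col1a1 0.19 and Krt14 -0.13. With single libraries left out the log2 fold changes ranged from -0.29 to 0.25 for Atp2a2, -0.11 to 0.46 for Stim1, -0.27 to 0.11 for P2ry1, -0.33 to 0.22 for Dag1, -0.32 to 0.36 for Myl6, -0.31 to 0.53 for Ano1, -0.18 to 0.44 for Pdgfra and -0.083 to 0.37 for Krt14. The cause of these shifts was not tested. Genes at a few CPM, such as Tmod1, Pln, Pcp4, Casq2 and Myocd, rest on few counts.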
